A study of Caenorhabditis elegans with 2 samples.

Results

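The ceh genes are the homeobox genes of the nematode Caenorhabditis elegans whose symbols are ceh and a number. Protein-coding genes with such a symbol were taken from the annotation of the genome assembly WBcel235 (Ensembl release 115, the same build as ce11), which gave 63 of 19973 protein-coding genes. All 63 carry the same symbol in RefSeq, and the RefSeq product names of all 63 hold the words homeo, one cut or POU. RefSeq names 1 further gene ceh-44, which Ensembl calls cone-1; it was kept out of the counts below and is given once on its own.

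Binding of BED-1, a protein with a zinc finger of the BED type that contacts DNA, was mapped by ChIP-seq, in which chromatin bound by a protein is precipitated and sequenced. The worms were of strain RW12201, which carries the allele st12201[bed-1::TY1::EGFP::3xFLAG] on chromosome V, made by CRISPR insertion into the bed-1 gene itself, and the tagged protein was pulled down through its green fluorescent protein. Both samples were whole young adults of 63 hours, grown after bleaching and starvation of L1 larvae, and they are 2 biological replicates of 1 group. There is no second group to compare, no control sample was analysed here, and chromatin of all tissues was mixed, so a site cannot be placed in a tissue.

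A homeobox encodes a homeodomain, a helical fold that reads short DNA words rich in A and T. Homeodomain proteins are transcription factors, and in worms many of them set and keep the identity of single neuron types, while others act in the epidermis, the pharynx, muscle, the gonad or the intestine. Many are transcribed in few cells.

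Peaks are given as the authors deposited them. The ranked list held 120637 peaks ordered by how well 2 sets of peak calls matched, each with a signal, the authors' value on a scale that the sources used here do not state, and an irreproducible discovery rate (IDR), which is low where the ranks in both sets go together. The main list held the 589 peaks that the authors kept from both replicates, and a stricter one, which they call conservative, held 523. A peak was assigned to a gene when its summit lay inside the gene or within 1000 bases of one of its starts. Signals are compared only within a list. The depth is unknown, since the files used hold no read counts. Where an interval follows a share of genes, it is the exact 95% interval (Clopper-Pearson), which covers the counting of genes only.

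BED-1 peaks of the main list were found at 2 of the 63 ceh genes, ceh-43 and ceh-83 (3.17%, interval 0.387 to 11.0), against 478 of all protein-coding genes (2.39%). The background share lies inside the interval, which is wide because it rests on 2 genes, so this count does not set the ceh genes apart. Both genes were also in the conservative list, which held 2.13% of all protein-coding genes. The shorter final lists made from each replicate alone held 0 ceh genes, against 0.381% of all protein-coding genes for replicate 1 and 0.371% for replicate 2. The main peak of ceh-43 had its summit inside a tRNA gene, and the one of ceh-83 lay in a short intron.

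The sequences at the strongest summits of 5 genes are shown because these are, with ceh-38, the 6 ceh genes of highest signal; the ceh-38 summit lies at a transcript start and is not printed. Each is 101 bases of the ce11 assembly as held by RefSeq, centred on the summit and printed 5′ to 3′ on the strand of the ceh gene. Capitals mark the bases of an annotated tRNA gene for ceh-43 (chrIII:4450317-4450417, minus strand) and coding bases of the ceh gene for ceh-83 (chrII:1735051-1735151, minus strand), ceh-60 (chrX:6522888-6522988, minus strand), ceh-57 (chrII:10365077-10365177, minus strand) and ceh-99 (chrII:12520570-12520670, plus strand), where there are none.
ceh-43: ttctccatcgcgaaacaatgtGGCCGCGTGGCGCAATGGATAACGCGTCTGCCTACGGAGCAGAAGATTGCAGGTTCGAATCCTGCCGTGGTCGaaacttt
ceh-83: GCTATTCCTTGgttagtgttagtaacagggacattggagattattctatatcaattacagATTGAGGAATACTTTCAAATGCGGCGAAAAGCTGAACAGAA
ceh-60: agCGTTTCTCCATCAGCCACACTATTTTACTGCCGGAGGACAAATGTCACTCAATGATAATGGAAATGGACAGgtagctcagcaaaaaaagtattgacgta
ceh-57: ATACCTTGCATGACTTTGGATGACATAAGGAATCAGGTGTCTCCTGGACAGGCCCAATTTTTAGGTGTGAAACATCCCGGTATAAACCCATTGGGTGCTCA
ceh-99: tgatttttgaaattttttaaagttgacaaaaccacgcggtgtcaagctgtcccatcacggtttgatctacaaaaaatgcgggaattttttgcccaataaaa

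The printed stretches lie in different surroundings. In ceh-43, 73 of the 101 bases are the whole of a tRNA-Arg gene. In ceh-83, 49 lower-case bases are an intron with coding exons on either side, and in ceh-60 the capitals are an exon of 71 bases. The ceh-57 stretch is coding throughout, and the ceh-99 stretch lies within an intron of 2117 bases. The GC content was 54.5% at ceh-43, 36.6% at ceh-83, 41.6% at ceh-60, 45.5% at ceh-57 and 35.6% at ceh-99. Over 201 bases around the summit, the median GC content was 41.3% for the strongest sites of the 57 ceh genes with a ranked peak and 45.8% for the main peaks. The median for the strongest sites of all genes is not given, so this does not compare ceh genes with other genes.

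ceh-43 encodes the Distal-less homeodomain protein of the worm, known for the anterior epidermis of the embryo and for dopamine neurons. The gene (WBGene00000463, chromosome III, 4446638 to 4449943, minus strand) had 7 ranked peaks. The strongest, at 4450237 to 4450496 with its summit at 4450367, had a signal of 71.7 and an IDR of 0.00702, and lay in the promoter, 424 bases upstream of the start. Its signal was 29.4 in the ranked list of replicate 1 and 45.9 in that of replicate 2. The summit lay inside the tRNA-Arg gene WBGene00014267 (4450324 to 4450396, minus strand) and inside a non-coding RNA gene on the plus strand, C28A5.11. Only 66.1% of the 31-base words within 100 bases of the summit occur once in the genome, so reads from other copies could fall here; their part in the signal was not tested.

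A second tRNA-Arg gene lies within ceh-43 (4449533 to 4449605), and the ranked peak next to it, with its summit at 4449640, had a signal of 39.6 and an IDR of 0.141. The other ranked peaks of ceh-43 had signals of 8.80 to 39.5. The strongest peak thus stood well above the rest of its gene, while 422 of the 589 main peaks had a signal at least as high. Peaks with a tRNA, snoRNA, snRNA or rRNA gene within 200 bases made up 3 of the 304 ranked peaks of ceh genes (0.987%), against 676 of the 94184 ranked peaks of any protein-coding gene (0.718%) and 102 of the 589 main peaks (17.3%). With such summits left out, the count of ceh genes with a main peak was 1, ceh-83, against 2.04% of all protein-coding genes.

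ceh-83 is a homeobox gene that is not placed in one of the large classes here (WBGene00018446, chromosome II, 1733716 to 1736533, minus strand). Of its 6 ranked peaks the strongest had a signal of 68.3, an IDR of 0.00832 and its summit at 1735101, in the fourth of 8 introns in one annotated transcript. The signal was 35.9 in replicate 1 and 38.9 in replicate 2, the most even pair among the strongest sites of the 5 genes printed above. The window around it was unique throughout. The other 5 ranked peaks of ceh-83 had signals of 5.33 to 40.6, and 492 of the 589 main peaks had a signal at least as high as its strongest.

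Outside the main list, ceh-60 (71.9) and ceh-38 (69.8) had signals above that of ceh-83, and ceh-99 (64.8) and ceh-57 (58.1) came next below it. Of the 63 ceh genes, 6 (9.52%, interval 3.58 to 19.6) lay in the top 10% of strongest signals, at 57.5 or more, against 9.27% of all protein-coding genes. At an IDR of 0.05 or less the strongest peak of 5 ceh genes passed (7.94%, interval 2.63 to 17.6), against 10.5% of all protein-coding genes. These were ceh-43, ceh-83, ceh-99, ceh-57 and ceh-38. Around an IDR of 0.01, ceh-83 lay just inside at 0.00832 and ceh-99 just outside at 0.0169. The main list is not simply the ranked peaks at or under this value, which number 704 against 589 in the main list.

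ceh-60 had the highest signal of all ceh genes. It encodes a PBC-class homeodomain protein, a relative of mammalian PBX, which acts in the intestine in the control of yolk and fat. The gene (WBGene00017690, chromosome X, 6522596 to 6530146, minus strand) had 12 ranked peaks, of which the strongest had a signal of 71.9 and an IDR of 0.0522. Its summit at 6522938 lay in the ninth of 10 exons, 7208 bases from the start, near the far end of the gene. The signal was 21.8 in replicate 1 and 42.98 in replicate 2. The other 11 peaks had signals of 4.07 to 36.8, so the high site was the one nearest the 3′ end of the gene and not one at its start.

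ceh-38 is a ONECUT gene, one of the cut homeobox genes known for panneuronal gene expression. Its gene (WBGene00000459, chromosome II, 6951526 to 6955409, plus strand) had 6 ranked peaks. The strongest, at 69.8 with an IDR of 0.0483, had its summit at 6951531, 5 bases past the start. Replicate 1 gave 31.2 and replicate 2 gave 29.6 at this site. The summit was also within reach of malt-1, so the peak cannot be assigned to ceh-38 alone. The remaining 5 peaks had signals of 22.5 to 38.5.

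ceh-99 (WBGene00044032, chromosome II, 12519981 to 12524478, plus strand) had 9 ranked peaks and is the ceh gene with a pair of strong ones. The intronic summit printed above, at 12520620, had a signal of 64.8, with 27.7 in replicate 1 and 41.5 in replicate 2. The second, at 12519885, lay 96 bases upstream of the start with a signal of 57.1 and an IDR of 0.0302, with 30.5 in replicate 1 and 31.1 in replicate 2. The window at the intronic summit was unique for 64.3% of its words. ceh-57 (WBGene00007416, chromosome II, 10363584 to 10367296, minus strand) had 3 ranked peaks, and its strongest, with a summit at 10365127 in a coding exon of 565 bases, had a signal of 58.1 and an IDR of 0.0341. This site was uneven between the samples, with 17.6 in replicate 1 and 40.9 in replicate 2.

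**Figure D1:**
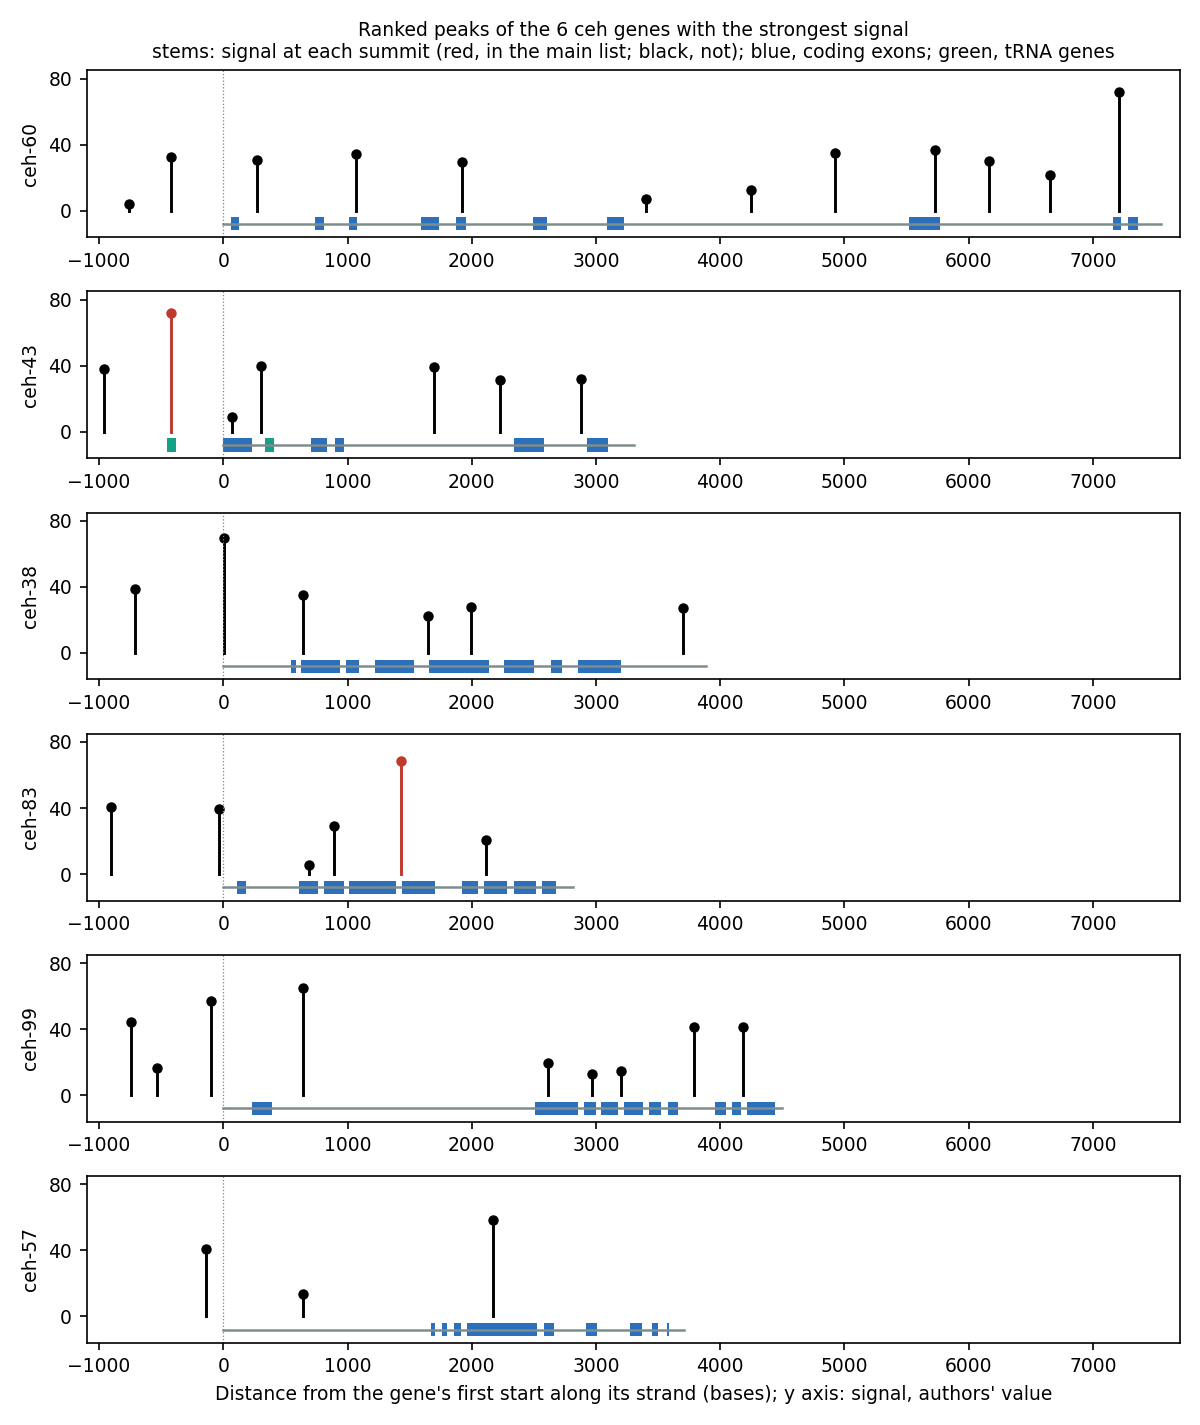
Ranked peaks of the 6 ceh genes of highest signal, as stems at each summit. The x axis is the distance in bases from the gene's first start along its strand, and the y axis is the authors' signal. Blue boxes are coding exons, green boxes tRNA genes, and red stems are in the main list. In ceh-43 the red stem (71.7) stands on the tRNA gene upstream of the start, in ceh-83 the red stem (68.3) stands within the gene, and in ceh-60 the highest stem (71.9) stands at the far end.

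After these 6 genes the signals fell off gradually. ceh-27, an NK-type gene, had 54.0, with its summit in an intron on chromosome V at 11663627, and 23.5 in replicate 1 and 27.1 in replicate 2. ceh-45, the goosecoid gene of the worm, had 50.3 in an intron, and a summit within 100 bases of it was found in the list of replicate 2 only (30.4). Replicate 1 had 4 ranked peaks at ceh-45, the strongest at 23.7 with its summit at 1130835. The ceh-45 site has its summit at 1130724, so this replicate 1 peak lay just outside the 100 bases. ceh-7 had 1 ranked peak, at 49.7, in a promoter 474 bases upstream of its start and shared with prx-5. Of the replicates' own ranked lists, only that of replicate 1 held this site (24.8). The ranked list behind the conservative list gives a signal for each of 2 compared peak sets. These were 22.9 and 24.8 at the ceh-7 site, and 23.7 and 30.4 at that of ceh-45. The 23.7 equals the signal of the strongest replicate 1 peak at ceh-45, so the absence from replicate 1 rests on the 100-base limit. ceh-87 had 49.3 at a summit 959 bases upstream of its start, in a coding exon of sup-9, which encodes a potassium channel subunit. This summit is the farthest from a ceh gene among the 10 genes of highest signal, close to the limit of 1000 bases.

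**Figure D2:**
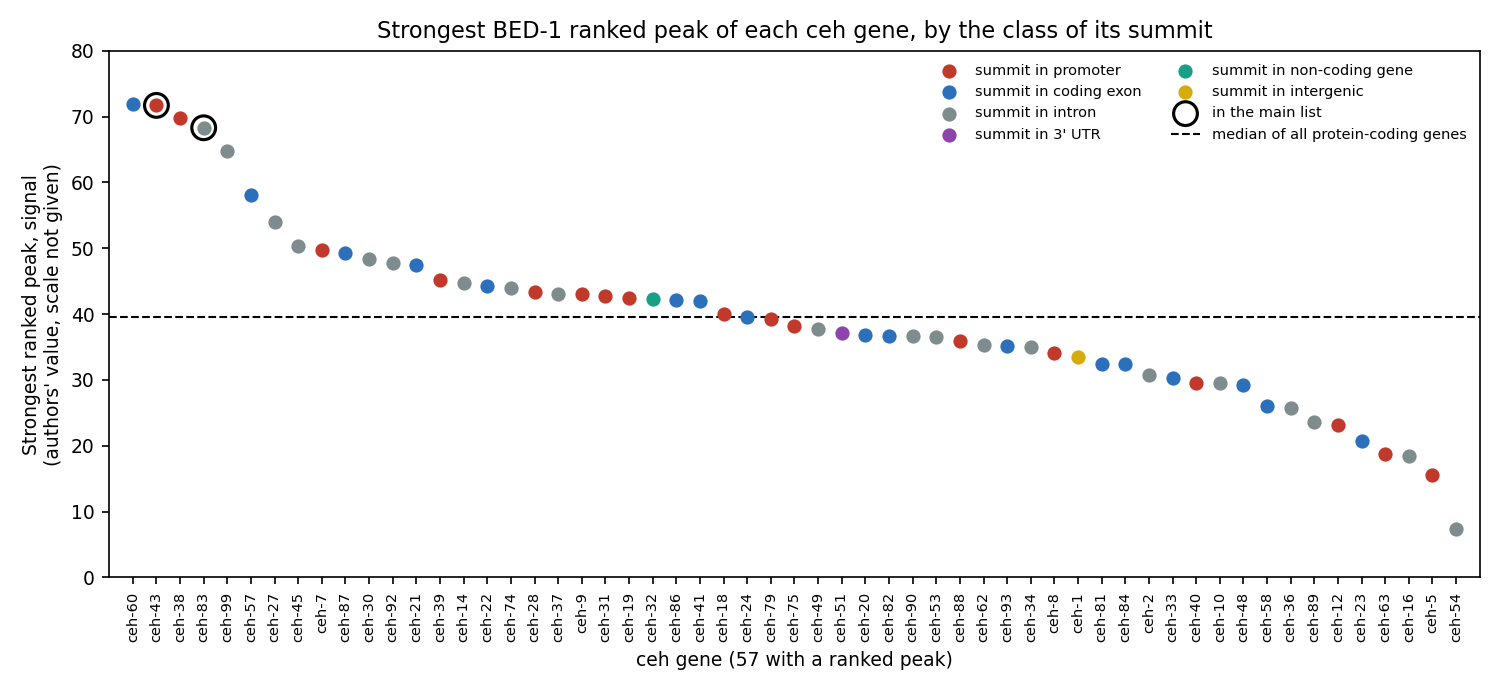
Strongest ranked peak of each of the 57 ceh genes that have one, from the highest to the lowest signal. The y axis is the authors' signal, colours give the class of the summit, rings mark the main list and the dashed line is the median of all protein-coding genes, 39.5. A group of 6 genes lies above 57.5, and ceh-60 at 71.9 is outside the main list while ceh-83 at 68.3 is in it.

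A ranked peak of any strength was found at 57 of the 63 ceh genes (90.5%, interval 80.4 to 96.4) in the list as used here, against 92.6% of all protein-coding genes. Nearly every gene had one, so the ranked list alone says little about a gene. The strongest signals of the ceh genes had a median of 38.2 (interquartile range 32.4 to 44.8, lowest 7.35, highest 71.9), against 39.5 for all protein-coding genes (31.5 to 48.5, highest 783). Of the 57, 26 lay at or above the median of all genes and 31 below it. The highest ceh signal, that of ceh-60, lay at percentile 97.7 of the strongest signals of all protein-coding genes with a ranked peak.

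Homeobox genes with other names and nuclear hormone receptor genes (nhr) were set beside the ceh genes. Main peaks were at 2 of 63 ceh genes, 0 of 37 other homeobox genes and 6 of 269 nhr genes (2.23%). The median strongest signal was 38.2 for the ceh genes, 44.1 for the other homeobox genes and 39.8 for the nhr genes. The ceh genes have a median length of 2652 bases, against 4858 for the other homeobox genes, 2309 for the nhr genes and 2027 for all protein-coding genes. Ranked peaks per kilobase of the searched sequence came to 1.08 for the ceh genes, 1.36 for the other homeobox genes, 1.31 for the nhr genes and 1.24 for all protein-coding genes. The median number of ranked peaks was 4 for the ceh genes and 4 for all protein-coding genes.

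**Figure D3:**
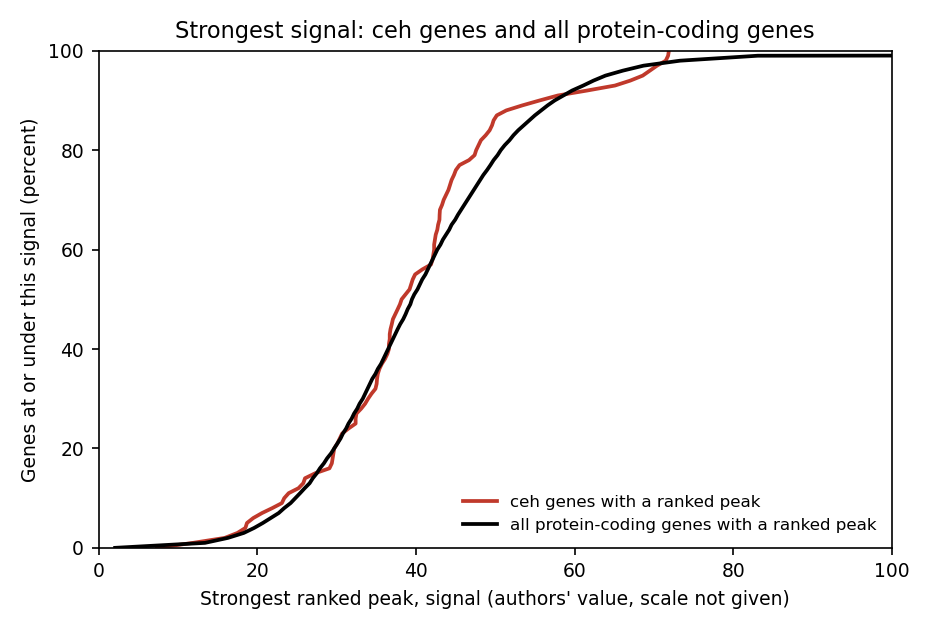
Share of genes, in percent, whose strongest ranked peak lies at or under the signal on the x axis (authors' value, shown up to 100), for the 57 ceh genes and the 18504 protein-coding genes with a ranked peak. The curves run close together, with medians of 38.2 for the ceh genes and 39.5 for all genes.

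Taken peak by peak, the 304 ranked peaks of ceh genes had a median signal of 23.5 (interquartile range 14.2 to 34.1), against 23.7 (15.1 to 33.3) for the 94184 ranked peaks of any protein-coding gene. At an IDR of 0.01 or less were 2 of the 304 (0.658%), against 436 of the 94184 (0.463%). Signal and IDR went together across genes, with a Spearman rho of -0.839 over the 57 ceh genes and -0.847 over all genes with a ranked peak, as a description, since both come from the same reads.

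The class of the strongest summit followed that of other genes in promoters and less so within genes. Promoters, from 500 bases upstream to 200 bases downstream of any protein-coding start, held the strongest summit of 17 ceh genes (26.98%, interval 16.6 to 39.7), against 28.1% of all protein-coding genes. Introns held that of 20 (31.7%, interval 20.6 to 44.7), against 20.2%, and coding exons that of 17 (26.98%, interval 16.6 to 39.7), against 33.7%. The background share for introns lies just outside the interval, and the difference was not tested. Counting every ranked peak and not only the strongest, introns held 33.9% of the ceh peaks and 33.8% of the peaks of any protein-coding gene. Promoters held 25% of ceh peaks against 21.6%, and coding exons 27.6% against 34.3%. One strongest summit each lay in a 3′ UTR (ceh-51, known for mesoderm), a non-coding gene (ceh-32) and intergenic sequence (ceh-1).

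Distance from the start did not set the ceh genes apart. The strongest summit lay at a median of 698 bases from the gene's nearest own start, against 711 bases for all protein-coding genes, and within 1000 bases for 39 of the 57 (68.4%), against 68.6%. It lay inside the gene for 46 ceh genes, upstream and outside for 10, and past the end of the gene for ceh-63. For 9 of the 57 the same summit was also assigned to another protein-coding gene, and for 51 the nearest start was the gene's own. The counts inside, upstream, past the end, shared and nearest have no share over all protein-coding genes beside them. They describe the ceh genes only.

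By homeobox class, the cut genes and the NK-type genes had the highest medians of the classes with at least 3 genes. The 6 cut genes ranged from 29.2 (ceh-48) to 69.8 (ceh-38), with a median of 43.6. They include ceh-39, known as an X-chromosome signal of sex determination, at 45.2, and ceh-21 at 47.4. ceh-21 and its neighbour ceh-41 (strongest peak 42.04) share a weaker peak at chromosome X 1849372, with a signal of 38.05. The 12 NK-type genes ranged from 15.6 (ceh-5) to 71.7 (ceh-43), with a median of 42.9. Without a test, and with so few genes, the classes cannot be ordered.

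Among the remaining classes the 3 PBC genes spanned the widest range for their number. ceh-60 had 71.9, ceh-20, a partner of Hox proteins, 36.9 and ceh-40 29.6. The paired-like genes ranged from 25.8 (ceh-36, an Otx gene of sensory neurons) to 50.3 (ceh-45), with a median of 34.1 over the 5 with a ranked peak. Of the sine oculis type genes, ceh-32 had 42.3, ceh-34, needed in pharyngeal neurons, 35.0 and ceh-33 30.3. ceh-18, a POU gene of the gonadal sheath cells that acts on oocytes, had 40.03, and ceh-14, a LIM gene of neurons, had 44.8. The Engrailed gene ceh-16, known in seam cells, had 18.4, and ceh-12, the HB9 gene of motor neurons, had 23.1. The 27 genes not placed in a class ranged from 7.35 (ceh-54) to 68.3 (ceh-83), with a median of 36.7 over the 24 with a ranked peak.

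The lowest signals were at ceh-54, ceh-5, ceh-16, ceh-63 and ceh-23. ceh-54 had 2 ranked peaks and its stronger one had a signal of 7.35, in an intron. ceh-5 had 15.6, at a promoter summit that also belongs to ocrl-1, and ceh-63 had 18.8, at a summit that also belongs to C02F12.5. ceh-23, known in a few neurons, had 20.8 in a coding exon. None of these strongest sites was found in the ranked list of replicate 1, and only that of ceh-5 was found in the list of replicate 2, at 17.4. All had an IDR between 0.354 and 0.680. ceh-81 and ceh-82, neighbours on chromosome II beside ceh-83, shared ranked peaks at 1731876 (signal 30) and 1731313 (signal 5.35), and their strongest signals were 32.4 for ceh-81 and 36.7 for ceh-82.

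No ranked peak was found at 6 ceh genes (9.52%), against 7.35% of all protein-coding genes. They are ceh-13, the labial Hox gene, ceh-6, a POU gene of the excretory cell and neurons, ceh-17, a Phox2-type gene, ceh-76, ceh-91 and ceh-100. By the assignment rule, each must lie in a stretch free of ranked summits that is at least as long as the gene. Such stretches around the other protein-coding genes without a ranked peak are not given. The stretch was 27036 bases long around ceh-100, 24030 around ceh-13, 14684 around ceh-6, 12892 around ceh-91, 12712 around ceh-17 and 2988 around ceh-76. The median spacing of ranked summits was 598 bases, and 713 spacings (0.591% of all) exceeded 10000 bases. What lies behind these stretches was not tested. Whether the ranked list as used here is complete over them is not known, so the count of genes without a ranked peak holds for that list as used.

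Most of these genes did have peaks in another ranked list. At ceh-13 the list of replicate 1 held 3 peaks, the strongest at 25.3, and that of replicate 2 held 2, the stronger at 33.7, while the list behind the conservative one gave 46.8. ceh-91 had 3 peaks in replicate 2, with 28.7 as the strongest, and ceh-17 had 20.2 in replicate 2. ceh-6 had 15.2 in replicate 1. ceh-76 had 8.13 in replicate 2 and 13.5 in the list behind the conservative one. Only ceh-100, the longest ceh gene at 21503 bases, had no peak in any list used. For 5 of the 6, a peak was thus present in a list other than the main ranked one.

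A minority of the strongest sites were in the own ranked lists of both replicates, for the ceh genes as for all protein-coding genes. Summits within 100 bases of the strongest ceh site were found in the ranked list of replicate 1 for 34 genes, in that of replicate 2 for 33, in both for 19 and in neither for 9. The 19 make up 30.2% of the 63 ceh genes (interval 19.2 to 43.02), against 39.9% of all protein-coding genes, a share inside the interval. The ranked list behind the conservative one held a summit within 100 bases for 56 of the 57 genes, with a signal for each compared peak set. Which replicate each of these signals belongs to is not stated. The counts of 34, 33, 9 and 56 have no share over all protein-coding genes beside them and describe the ceh genes only. At the 19 sites the signal was higher in replicate 1 at 10 and higher in replicate 2 at 9. The signals ran from 17.2 to 35.9 in replicate 1 and from 8.14 to 45.9 in replicate 2. Spearman's rho between them was 0.272 over the 19 sites, which share their libraries, and it is given as a description.

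Each replicate's own strongest peak often lay elsewhere in the gene. Of the 43 ceh genes with a ranked peak in both replicates' lists, the strongest summits of the replicates lay within 100 bases of each other in 10 (23.3%), against 24.1% of all protein-coding genes with both. Over the 43 genes the rho between the replicates' strongest signals was 0.274, against 0.315 over 14838 protein-coding genes. The median strongest signal of the ceh genes was 23.4 in replicate 1 and 23.3 in replicate 2, against 21.9 and 24.0 for all protein-coding genes in the same lists. All of the 6 ceh genes of highest signal were among the 19 with their strongest site in both lists. The same share for the genes of highest signal among all protein-coding genes is not given.

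**Figure D4:**
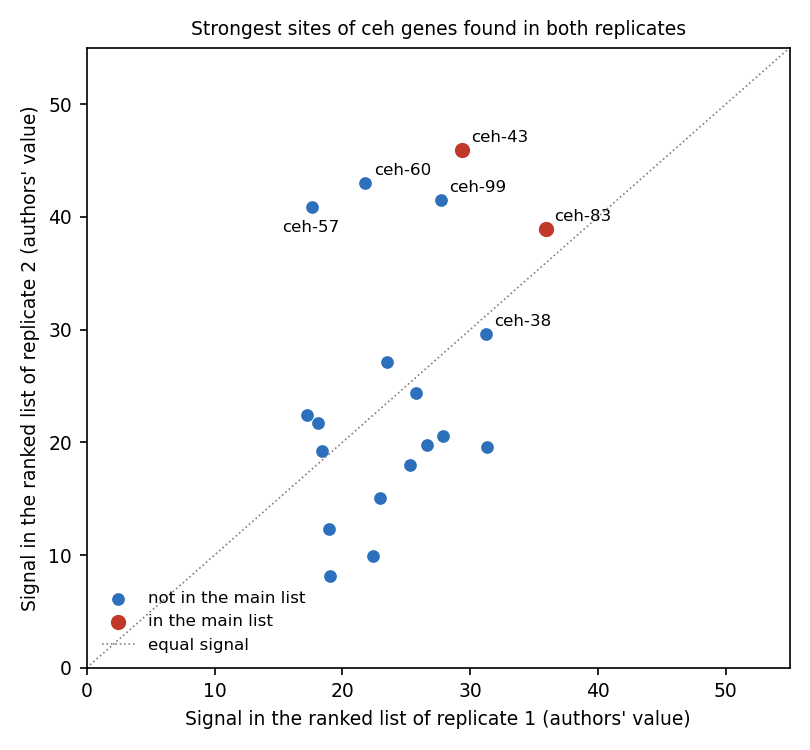
Signal at the strongest site of the 19 ceh genes for which both replicates have a ranked peak within 100 bases, with replicate 1 on the x axis and replicate 2 on the y axis (authors' values). The dotted line marks equal signal and red points are in the main list. ceh-83 (35.9 and 38.9) lies near the line, and ceh-57 (17.6 and 40.9) and ceh-60 (21.8 and 42.98) lie far above it.

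In longer genes more sequence was searched for peaks, and the ceh genes have a greater median length than all protein-coding genes. Any part of length in the signal was not tested. Over the 57 ceh genes the rho between gene length and strongest signal was 0.255, against 0.335 over all protein-coding genes with a ranked peak. Among genes of 2918 bases or more, the median strongest signal was 42.3 for 26 ceh genes and 44.97 for all. Among genes of 1459 to 2917 bases it was 36.8 for 22 ceh genes and 38 for all, and among shorter genes 38.2 for 9 ceh genes and 35.1 for all. The long ceh-18 (14431 bases, 16 ranked peaks) reached 40.03, and ceh-7, the shortest at 515 bases, reached 49.7.

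**Figure D5:**
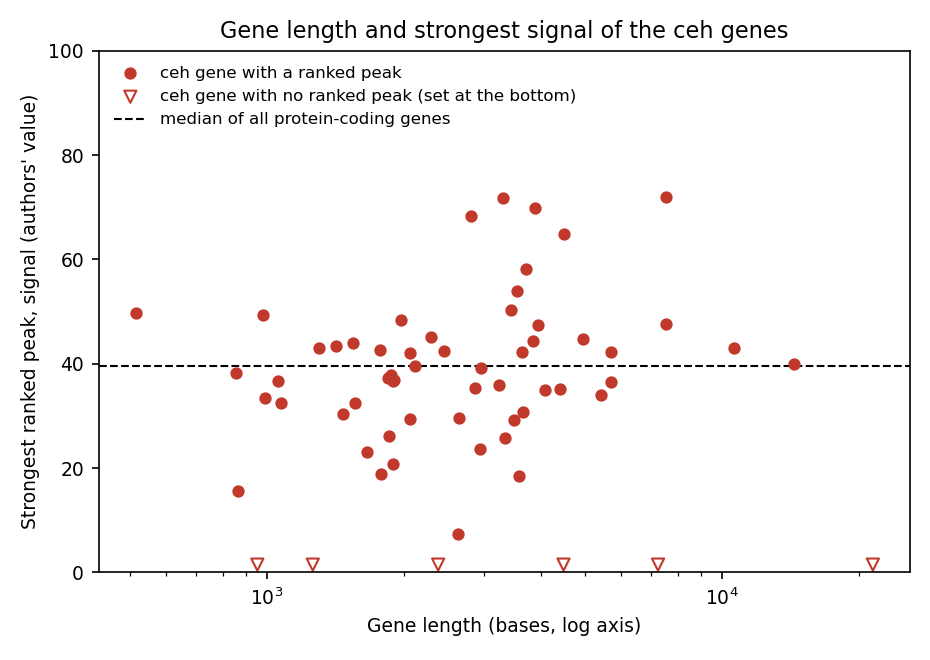
Gene length on a log axis against the signal of the strongest ranked peak (authors' value) of the 57 ceh genes with one, with triangles at the bottom for the 6 genes with none. The dashed line is the median of all protein-coding genes, 39.5. The 6 genes of highest signal are between 2818 and 7551 bases long, and genes without a ranked peak occur at short and long lengths.

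By chromosome, 18 of the 63 ceh genes lie on X (28.6%), against 13.7% of all protein-coding genes. The 18 had a ranked peak each and 0 had a main peak, while 2.05% of all protein-coding genes on X had one. Their median strongest signal was 41.03, against 41.4 for all genes on X. Chromosome II holds 13 ceh genes (20.6%), against 17.3% of all protein-coding genes. Their median was 45.8 over the 12 with a ranked peak, against 39.1 for all genes there. This median includes 4 of the 6 ceh genes of highest signal. The share of II among the highest signals of all protein-coding genes is not given. On III the median was 33.2 over 6 ceh genes, against 40.5. These medians rest on few genes and were not tested.

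The sequence around the strongest ceh summits was mostly unique. Of the 57 windows of 201 bases, 53 (93.0%) held only 31-base words that occur once in the genome, against 369 of the 589 windows of main peaks (62.6%). The main peaks are an unlike set, since 17.3% of them have a tRNA, snoRNA, snRNA or rRNA gene within 200 bases. The share for the strongest summits of all genes is not given, so this does not compare ceh genes with other genes. The exceptions were ceh-43 (66.1%), ceh-99 (64.3%), ceh-92 (76.0%) and ceh-51 (34.5%). ceh-43 and ceh-99 are among the 6 genes of highest signal.

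Short words were sought on both strands of the same windows. TAATTA, the core word of many homeodomain proteins, was in 5 of the 57 ceh windows (8.77%), against 7.58% of all ranked windows. TGATNNAT, a word of PBC proteins with Hox partners, was in 9 (15.8%), against 14.5%. TATCGATA, bound by the BED finger protein DREF of Drosophila, was in 0, against 0.290%, and its core CGATA, which every TATCGATA also holds, in 10 (17.5%), against 19.8%. GAGAGA was in 10 (17.5%), against 11.1% of all ranked windows and 18.7% of main windows. The ranked windows include weak peaks, and the shares for the strongest summits of all genes are not given. The window shares thus do not compare ceh genes with other genes. In promoters of 300 bases, from 250 bases before to 50 after the start, GAGAGA was found for 19 of 63 ceh genes (30.2%), against 21.8% of all protein-coding genes, and TAATTA for 9 (14.3%), against 15.5%. The 101-base stretches printed above hold none of the 5 words. A match is a word in the sequence and not a site, and the absence of a word holds for these letters and windows only.

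The gene that RefSeq calls ceh-44 is a cut gene at chromosome III 2530613 to 2546420. It had 12 ranked peaks, the strongest with a signal of 41.4 and an IDR of 0.165, in a coding exon at 2541001, and 0 main peaks. With it the median strongest signal was 38.7 over 58 ceh genes, against 39.5 for all protein-coding genes.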

How the data were processed

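The 2 samples are biological replicates of 1 group. Peaks were called by the authors and deposited as ranked and final lists, per sample and for both replicates. The signal of each peak and the −log10 of its IDR are the values the authors deposited. The sources used here do not state the signal's scale, the aligner or the caller. The build is ce11, per the labels, and all peaks lie within the chromosome lengths of WBcel235.

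Summits were assigned to Ensembl release 115 genes within 1000 bases of a start or inside the gene, with Python 3.11.15, pandas 2.3.3, numpy 2.4.6 and scipy 1.17.1. A summit in a promoter was classed there first, then by 5′ UTR, exon that codes, 3′ UTR, intron and non-coding gene, and was otherwise intergenic. The assignment was tested on simulated data. Replicate signals come from each sample's own ranked list, at a summit within 100 bases. No test was run: counts and medians of ceh genes stand beside those of all protein-coding genes. The exact intervals treat genes as independent, though some ceh genes share peaks. Genes named are those in a final list, the 10 highest, the 5 lowest, those with no ranked peak, those sharing a peak, and the extremes of each class; ceh-1, ceh-20, ceh-34, ceh-39, ceh-51 and ceh-92 were named after their values were seen. The members, lists and words were chosen with earlier results of these data known.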

Additional observations from a re-analysis of the deposited data

How the results depend on the processing

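The count of ceh genes with a main peak, 2 as reported, was 5 when all ranked peaks at an IDR of 0.05 or less were taken (11.1% of all protein-coding genes). It was 1 when only summits within 1000 bases of a start counted (1.63%) and 1 without summits near tRNA, snoRNA, snRNA or rRNA genes (2.04%); both follow from how these settings are built. With the final list of a single replicate, which leaves out the other, it was 0 and 0. It was 2 under the other 6 settings. The median strongest signal, 38.2 against 39.5 for all protein-coding genes, was 36.9 against 35.4 with summits near a start only. It was 37.2 against 38.02 with a start window of 500 bases, and 39.4 against 42.5 with 2000 bases. Where the gene's own start had to be the nearest it was 37.2 against 37.4, and with ceh-44 it was 38.7. With summits near a start only, the ceh median thus lay above that of all genes, and under the other settings named it lay below. Strongest sites in both replicates' own ranked lists numbered 11 with summits within 50 bases and 25 within 200, against 19 within 100. These distances and ceh-44 were chosen after seeing the data. The count of genes with a ranked peak stayed between 50 and 59, and that of promoter summits between 14 and 24. No paired analysis was possible because there is only 1 group. With 2 samples, no read counts and no control analysed, the error of a single signal is unknown.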
